A study of Oryza sativa Japonica Group and Oryza sativa Indica Group with 24 samples.

Results

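The CCCH zinc finger genes of rice were followed in the crown and growing point, with and without salt. A gene was a member when its symbol or a synonym in the RefSeq gene table was C3H and a number once a leading Os was dropped. The table (assembly ASM3414082v1) holds 53 such genes, and 50 of them have a probe set of their own on the array, among 17905 genes that do. C3H38 (U2AF35B), C3H56 and C3H67 have none. The 50 genes have 70 of the 57258 probe sets tested, with 1 probe set for 36 genes and 2 to 4 for the other 14. All 70 were kept, whatever their signal, and 64 of them lay above the 40th percentile of all probe sets, which is a scaled signal of 27.9.

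CCCH proteins hold a zinc ion between cysteines and a histidine, and many of them bind RNA. In plants the family takes part in messenger RNA splicing, turnover and translation, and some members act on transcription. Rice members have been studied for leaf senescence, flowering time, plant architecture, disease resistance and drought tolerance.

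Total RNA of 24 samples was labelled with biotin and measured on 24 Affymetrix rice arrays. The plants were taken at panicle initiation, an early reproductive stage that the series text calls sensitive to salt. The titles give 4 sets of 6 arrays, each with 3 control and 3 salt arrays, and call the replicates biological. How strong the salt was, how long it lasted and how many plants made up a sample were not stated in the labels. The groups were control and salt of m103, described as a sensitive japonica, control and salt of agami, described as a tolerant japonica, and control and salt of 2 sets that are both titled ir29. An indica called ir29 is described as sensitive. A tolerant indica, ir63731, is described as well, but its name is in none of the titles. The titles are numbered, and the ir29-labelled arrays 7 to 12 are called the first set here and 19 to 24 the second, with no class of tolerance for either. Since the description field has every sample as unstressed, the treatment was read from the title and the treatment field.

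The deposited intensities were on unlike scales. In 15 arrays the trimmed mean was 500.07 to 500.08, and in the other 9 it was 58.8 to 115.7. These were 5 m103 arrays and 4 from the first ir29-labelled set. Each array was brought to a trimmed mean of 500, and signals below are on that scale. Replicate arrays correlated with a Pearson's r of 0.960 to 0.971 across probe sets. The summed signal of 6 growing point markers had a median of 7379 over m103 controls and 8239 over agami controls. It was 3681 and 4687 over the first and second ir29-labelled controls. Of the 6, OSH1, MADS14, RFL and OSH71 had control medians of at least 217 in every set, with OSH1 the highest. MADS34 was dim, with control medians of 30.2 in m103, 10.7 in agami and 5.10 and 1.70 in the ir29-labelled sets. MADS15 had 691 in m103, 35.9 in agami and 49.3 and 72.9 in the ir29-labelled sets. The 8 leaf markers summed to 36626 to 65971 over the 24 arrays, the 5 root markers to 345 to 1826 and the 6 seed markers to 1726 to 3086. In whole tissue, fewer cells of a type and less RNA per cell cannot be told apart. Between cultivars, less transcript and a sequence that binds the probes less well cannot be told apart either. Probe sequences were not used here. Probe sets of a gene are told apart below by their mean signal, and no test compared the levels of different genes.

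Most members had a similar signal in all 4 sets without salt, and a few parted the sets sharply. The distance between the highest and the lowest of the 4 control means had a median of 0.41 (log2) over the 50 genes, each by its brightest probe set. Over the 70 probe sets it had a median of 0.44, and over all 57258 probe sets 0.63. It was at least 1, a 2-fold distance, in 7 of the 50 genes. By probe sets this was 11 of 70, or 15.7%, against 22.6% of all probe sets. The test over the 4 control groups (limma, adjusted p under 0.05) called 24 member probe sets of 18 genes, or 34.3%, where 23.9% of all probe sets were called. Among probe sets above the 40th percentile the shares were 42.2% of 64 and 41.7%, so above that cut members were called about as often as all probe sets. The cut is low, and no probe sets were matched to the members in signal.

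**Figure D1:**
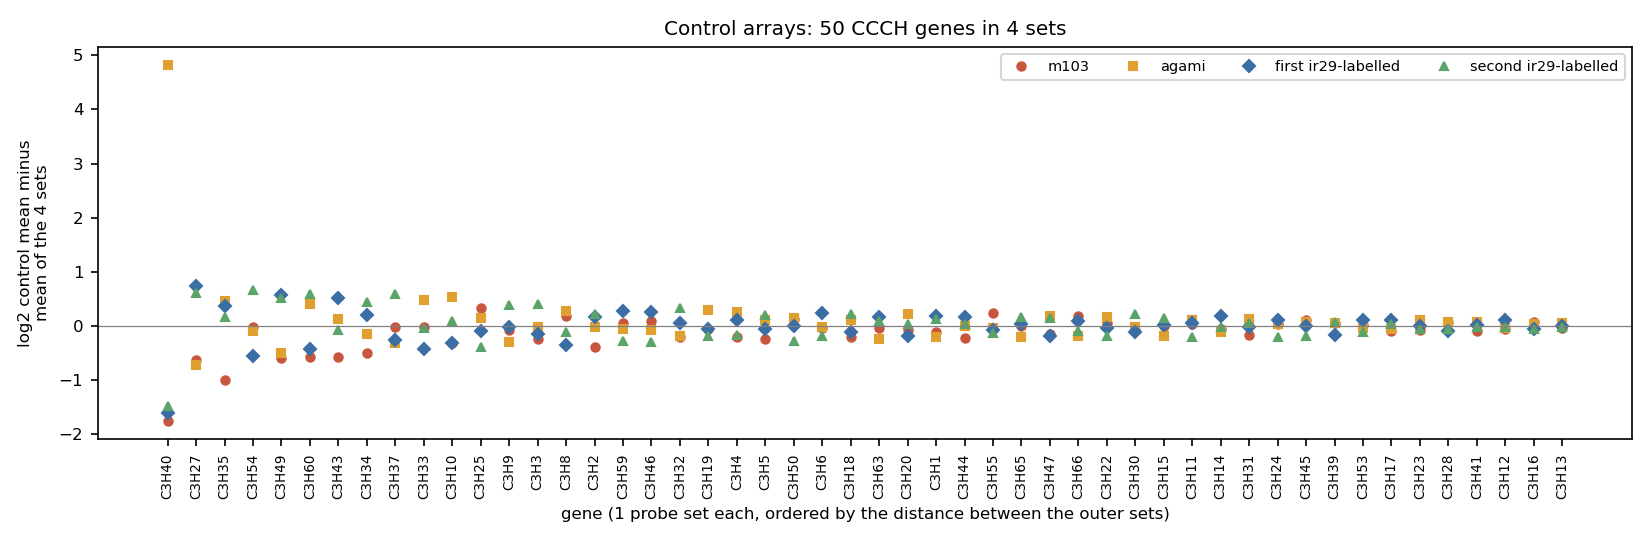
Control arrays only. Each column is 1 of the 50 CCCH genes by its brightest probe set, and each point is the mean of 3 control arrays of a set, as log2 signal minus the mean of the 4 sets. C3H40 in agami stands far above all other points, and to the right of C3H43 the sets of each gene lie within 1 log2 unit.

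C3H40 was bright in agami and near the bottom of the scale elsewhere. Its probe set gave 2951, 3288 and 3895 in agami controls and 3897, 3799 and 4033 in agami salt arrays. In the other 18 arrays it ran from 2.70 to 51.3, with 32.0, 2.70 and 33.4 in m103 controls. No array outside agami came near an agami array. Agami controls exceeded m103 controls by 6.57 ± 0.47 (log2, SE, 3 arrays each), a 95.3-fold difference on the log2(signal + 16) scale, with an adjusted p of 3.6e-10 (limma). Because the m103 control values lie near or below the 40th percentile signal of 27.9, that fold depends on the constant of 16. The ir29-labelled controls minus the mean of the japonica controls gave -3.07 ± 0.33 (adjusted p = 8.6e-08), and that mean was carried by agami. Salt moved C3H40 by 0.22 in agami and by -0.20 to 0.29 in the other sets, none of it called.

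C3H2, the gene DOS whose product delays leaf senescence, has 2 probe sets, and they gave unlike pictures of the first ir29-labelled set. One of them has a plain ending in its name, and the name of the other ends in s_at, which marks probes that also match other transcripts. The plain probe set gave 155, 87.7 and 276 in the controls of that set. It gave 3343, 4601 and 3644 in the controls of the second ir29-labelled set, 2580, 2441 and 2176 in m103 and 3360, 3022 and 3096 in agami. The salt arrays of the first set were as low, at 218, 150 and 298, so all 6 arrays of this set lay below all others. The second set exceeded the first by 4.47 ± 0.24, or 22.2-fold (adjusted p = 2e-12, limma), although both sets carry 1 cultivar name. The s_at probe set gave 4536, 4516 and 5323 in the same first-set controls and 4992, 5375 and 4580 in those of the second. These ranges overlap, and the difference of 0.06 was not called. On it the ir29-labelled controls exceeded the japonica controls by 0.40 ± 0.09 (adjusted p = 0.0021), while on the plain probe set the difference was -1.76 ± 0.17 (adjusted p = 1.4e-08). The latter was carried by the first set, since the second had the highest control mean of all sets on the plain probe set.

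C3H18 showed a like split among its 3 probe sets, this time between ir29-labelled and japonica arrays. On the dimmest the controls gave 624, 635 and 651 in m103 and 546, 710 and 725 in agami. They gave 85.1, 82.2 and 91.0 in the first ir29-labelled set and 78.9, 106 and 96.4 in the second. The groups did not overlap, and the difference of -2.65 ± 0.14, or 6.27-fold, had an adjusted p of 1.6e-13 (limma). On the other plain probe set the ir29-labelled controls were higher instead, by 0.48 ± 0.12 (adjusted p = 0.0035). There the second set exceeded the first by 0.62 ± 0.16 (adjusted p = 0.02), a call lost without control replicate 1 of the first set (0.13) or control replicate 3 of the second (0.16). The third, which ends in x_at and so also shares probes with other transcripts, ran from 1499 to 2725 over the controls. Between ir29-labelled and japonica controls it gave 0.10, which was not called. The test over the 4 control groups did call it (adjusted p = 0.035, limma), with m103 lowest and the second ir29-labelled set highest. That call was lost in 6 of 12 fits without 1 array.

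**Figure D2:**
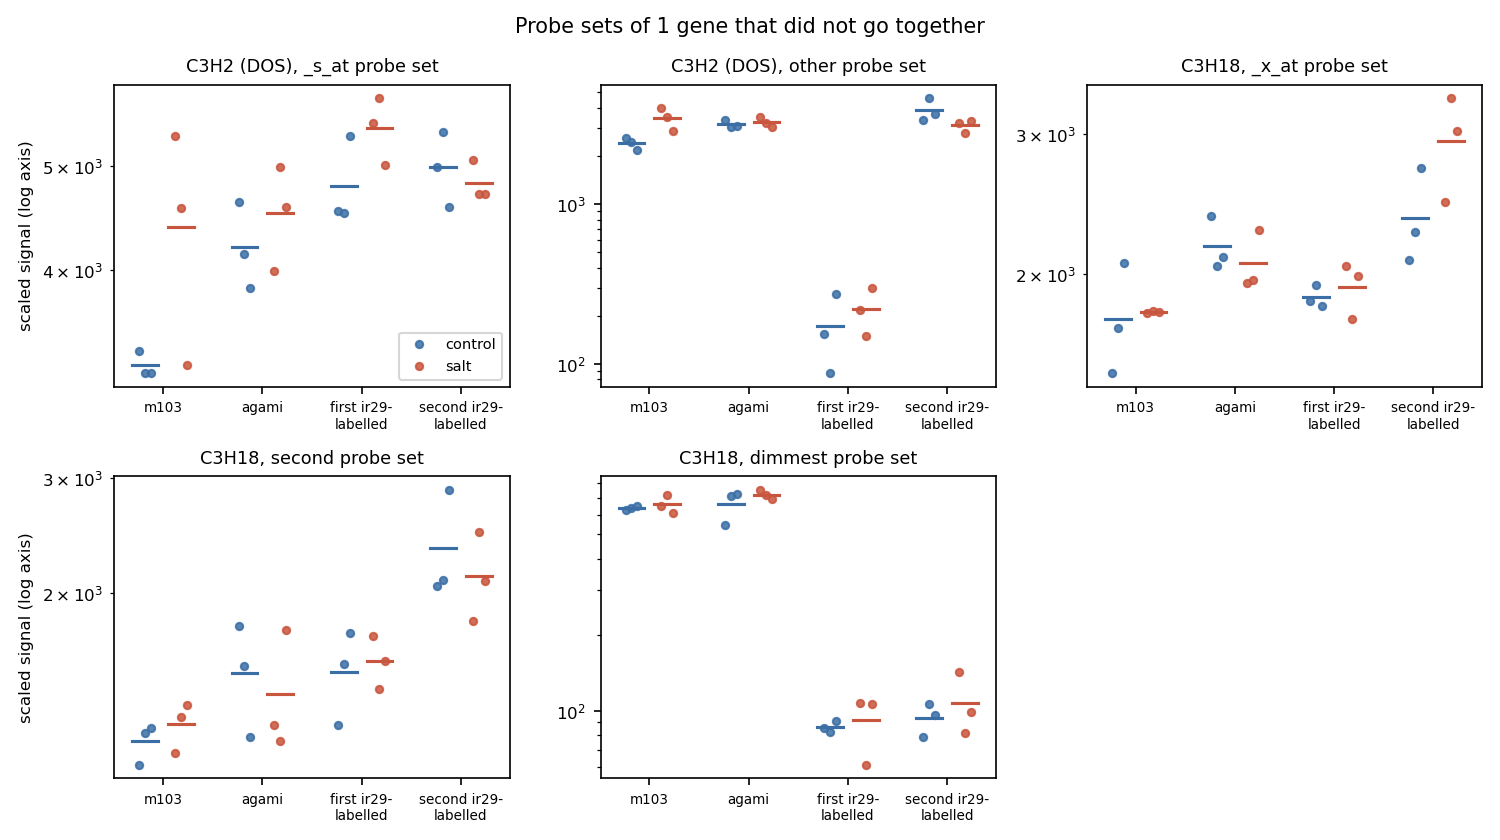
Scaled signal (log axis) of the 2 probe sets of C3H2 and the 3 of C3H18 in the 4 sets, with control arrays in blue, salt arrays in red and the group mean as a line. The plain probe set of C3H2 is low in the first ir29-labelled set alone, and the dimmest of C3H18 is low in both ir29-labelled sets.

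In the contrast of ir29-labelled against japonica controls, the sign was compared between probe sets above the 40th percentile in 14 genes with several. They lay on the same side of 0 in 5 genes and not in 9, whether called or not. The share over all genes with several probe sets was not counted. Probe sets of 1 gene share the RNA sample and are no replicates of each other. This contrast called 17 member probe sets of 12 genes, or 24.3% (18.2% of all probe sets were called), with 10 higher (8.86% of all) and 7 lower (9.37% of all) in the ir29-labelled controls. Of these, 5 were past 2-fold, which 6.39% of all probe sets were. Above the 40th percentile the shares were 34.4% of the members and 32% of all. The summed growing point signal moved with this contrast, at 3390 to 4923 in the ir29-labelled and 6743 to 8307 in the japonica controls. That sum followed OSH1, with control medians of 1293 and 2299 in the ir29-labelled sets and 4463 and 5979 in m103 and agami. Of the 6 growing point markers 1 was called lower and 0 higher in the ir29-labelled controls, with a median of -0.23. Their part in the member calls was not tested.

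C3H27 and C3H49 were brighter in both ir29-labelled sets. For C3H27 the controls gave 1370, 1206 and 1528 in m103 and 1304, 1284 and 1262 in agami. The controls gave 3355, 3369 and 3905 in the first ir29-labelled set and 2913, 3331 and 3427 in the second. The lowest ir29-labelled control lay above the highest japonica control, and the difference was 1.34 ± 0.08, or 2.53-fold (adjusted p = 7.4e-13, limma). For C3H49 the controls gave 656, 719 and 824 in m103, 628, 808 and 928 in agami, 1769, 1697 and 1505 in the first ir29-labelled set and 1559, 1553 and 1677 in the second. These did not overlap either, and the difference was 1.09 ± 0.09, or 2.13-fold (adjusted p = 2.2e-09). Within each pair of sets the controls of C3H27 and C3H49 overlapped.

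C3H35 was low in m103. Its brightest probe set gave 2302, 2140 and 2266 in m103 controls against 6288, 5971 and 6140 in agami, 5245, 6252 and 5764 in the first ir29-labelled set and 4623, 5812 and 4579 in the second. All m103 controls lay below all others. Agami exceeded m103 by 1.45 ± 0.12, or 2.73-fold (adjusted p = 3.6e-09, limma). On its other 2 probe sets agami minus m103 was 0.53 ± 0.18 (the one ending in x_at) and -0.12 ± 0.20 (the dimmest), neither called. The x_at probe set had its lowest control mean in m103 too, 1.40 below the highest on the log2 scale. All 3 were higher in the ir29-labelled than in the japonica controls, by 0.53, 0.92 and 0.58, and each was called. On the brightest, agami had the highest control mean of all sets, so the japonica mean there was lowered by m103 alone. The contrast of agami with m103 called 3 member probe sets, or 4.29%, all higher in agami, where 6.28% of all probe sets were called (2.9% higher). Above the 40th percentile these shares were 4.69% and 11.4%. Leaf markers moved with this contrast: 6 of 8 were lower in agami and 0 higher, with a median of -0.88, and their sum was 36626 to 42253 in agami and 50773 to 59311 in m103 controls. The summed root signal was 549 to 557 and 1041 to 1826. That sum followed Lsi1, with control medians of 220 in agami and 854 in m103. Of the 5 root markers 1 was called lower and 0 higher in agami, with a median of 0.08. The part of these in the calls was not tested.

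The third call in that contrast was C3H60, the small subunit U2AF35A of the splicing factor U2AF, which takes part in finding the 3′ end of introns. Its controls gave 1977, 2007 and 1695 in m103 and 4417, 3977 and 2944 in agami. They gave 1766, 2045 and 2474 in the first ir29-labelled set and 3203, 4485 and 5201 in the second. Agami lay above m103 by 0.97 ± 0.20 (adjusted p = 0.0025, limma), and the second ir29-labelled set above the first by 1.02 ± 0.20 (adjusted p = 0.0015), with no overlap in either. The first of these calls was lost when the deposited scale of the arrays was a term of the fit, where the difference was 0.85 (adjusted p = 0.09), and all 3 m103 controls had the lower scale. The large subunits U2AF65A and U2AF65B and 3 serine-arginine splicing factors, RSZ21A, RSZ23 and RSZP21, had no call for the mean salt effect. Among the controls 2 of these 5, RSZ21A and RSZP21, were also higher in the second than in the first ir29-labelled set, by 0.62 and 0.47, and RSZP21 was lower in the ir29-labelled than in the japonica controls (-0.78).

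**Figure D3:**
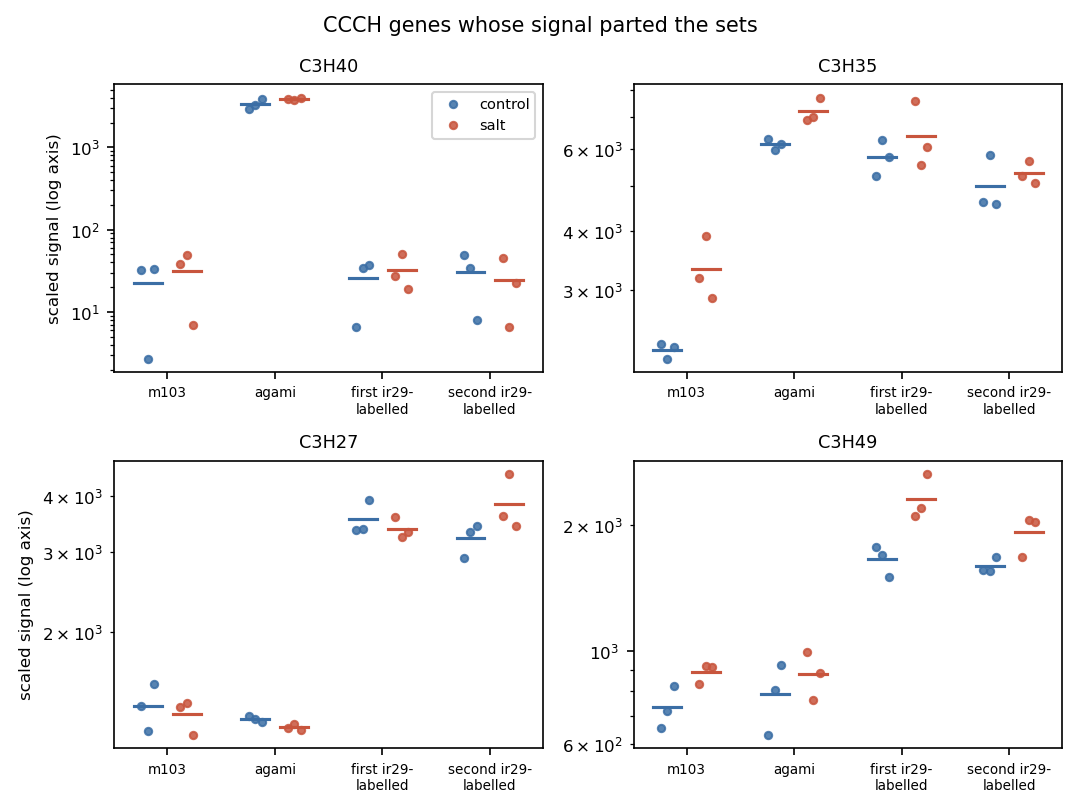
Scaled signal (log axis) of C3H40, C3H35, C3H27 and C3H49 in the 4 sets, with control arrays in blue, salt arrays in red and the group mean as a line. C3H40 is bright in agami alone, C3H35 is low in m103, and C3H27 and C3H49 are higher in both ir29-labelled sets.

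Other set differences without salt were smaller. C3H8 was lower in the ir29-labelled controls on both of its probe sets, by 0.46 ± 0.06 (3051 to 3930 against 4367 to 5063) and by 0.96 ± 0.15 on the one ending in s_at, both called (adjusted p = 3.2e-06 and 3.4e-05, limma). C3H55 was lower by 0.77 ± 0.14 on 1 of its 3 probe sets (adjusted p = 0.00013), while its brightest gave -0.21 and was not called. C3H25 was lower by 0.48 ± 0.09 (adjusted p = 0.00025). C3H32 was higher by 0.38 ± 0.07 (adjusted p = 8.3e-05), C3H63 by 0.27 ± 0.07 (adjusted p = 0.011) and C3H11 by 0.24 ± 0.08 on a probe set ending in x_at (adjusted p = 0.035). The C3H11 call was lost in 7 of the 12 fits that left out 1 array. The brightest probe set of C3H11 went the other way, by -0.14 ± 0.07, and was not called.

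Between the ir29-labelled sets, 6 member probe sets were called, or 8.57%, where 7.11% of all were. Of these, 4 were higher and 2 lower in the second set (3.56% of all each way). Above the 40th percentile the shares were 14.1% of the members and 13.6% of all. Beside C3H2, C3H18 and C3H60 these were C3H37, C3H59 and C3H6. C3H59 gave 1259, 1239 and 1147 in the first set and 866, 775 and 808 in the second, a difference of -0.57 ± 0.12 with no overlap (adjusted p = 0.0026, limma). C3H37 was higher in the second by 0.84 ± 0.20 (adjusted p = 0.0084). Its controls did not overlap either, but the call was lost in 3 fits without 1 array. The adjusted p rose to 0.09 (limma) without control replicate 2 of the second set. C3H6 was lower in the second by 0.42 on the log2 scale (adjusted p = 0.024), a call lost in 5 of 6 such fits.

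Salt moved few members, and no member was both called and moved 2-fold. Of all probe sets, 1.49% were in m103, 0.155% in agami, 1.25% and 0.486% in the first and second ir29-labelled set and 0.449% for the mean of the sets. Over the 4 sets taken one by one, 14 of 280 tests of a probe set in a set were called, in 11 genes. Of these, 9 were called in 1 set, 2 (C3H9 and C3H35) in 2 sets and 0 in 3 or 4. Control and salt arrays were apart in all 4 sets in 0 of the 70 probe sets, as they were in 0.784% of all. In 5 of the 70, or 7.14%, the salt arrays lay above all controls in 1 set and below them in another, as in 4.99% of all. In m103, 4 probe sets were called, or 5.71%, where 4.43% of all were, with 3 higher (2.09% of all) and 1 lower (2.34% of all). In agami 0 were called, where 0.349% of all were, and 7 of the 70, or 10%, had an unadjusted p under 0.05 (limma), where 9.96% of all did. In the first ir29-labelled set 3 were called, all higher, or 4.29%, where 2.92% of all were called (1.74% higher). In the second 7 were called, or 10%, where 4.11% of all were, with 4 higher (2.1% of all) and 3 lower (2.01% of all). Above the 40th percentile, members and all probe sets were called at 6.25% and 8.85% in m103, 6.25% and 5.8% in the first and 12.5% and 8.83% in the second ir29-labelled set.

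The mean of the 4 salt effects called 10 members, or 14.3%, where 9.39% of all probe sets were called, with 8 higher (4.91% of all) and 2 lower (4.48% of all). Above the 40th percentile it was 17.2% against 17.7%. The members' median was 0.04 (log2), beside 0.00 for all probe sets, and 32 of the 50 genes had a mean change above 0. In m103 the summed root signal was 1041 to 1826 without and 628 to 728 with salt and the summed growing point signal 6743 to 7721 and 8730 to 9964. The root sum followed Lsi1, with medians of 854 and 289, and the growing point sum OSH1, with 4463 and 6630. The lists' median changes ran the other way, at 0.31 for the root and -0.17 for the growing point genes. Of these, 1 root gene was called lower and 0 growing point genes either way. Their part in the salt results was not tested. The genes called for the mean were C3H9 and C3H20, which fell, and C3H15, C3H23, C3H32, C3H35, C3H37, C3H44, C3H49 and C3H63, which rose.

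**Figure D4:**
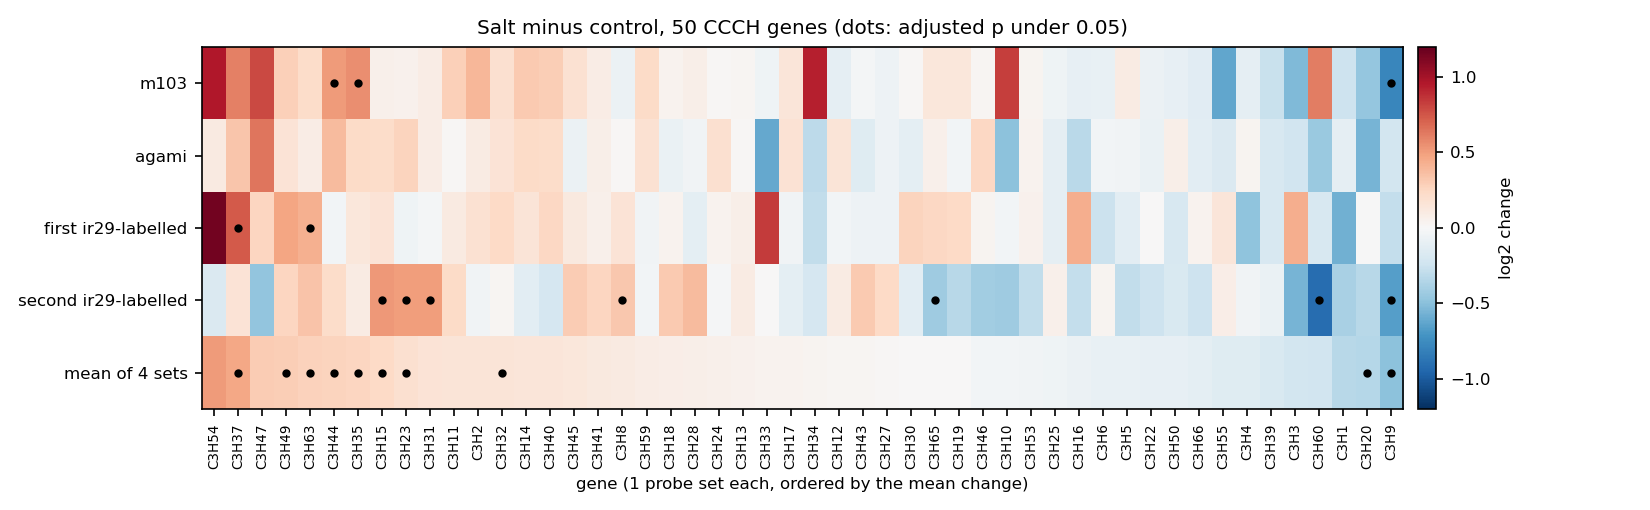
Change with salt (log2, colour) of the 50 CCCH genes, each by its brightest probe set, in the 4 sets and as their mean, ordered by the mean, with a dot where the adjusted p was under 0.05. Dots in the rows of single sets are few, and none is in the row of agami.

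C3H9 fell. It gave 815, 688 and 594 in m103 controls and 394, 381 and 417 with salt, and 1021, 1064 and 803 in controls of the second ir29-labelled set and 764, 638 and 437 with salt. In both sets every salt array lay below every control. In agami (738, 494 and 567 against 603, 439 and 484) and in the first ir29-labelled set (864, 602 and 706 against 519, 588 and 652) the groups overlapped. The change was -0.78 ± 0.19 in m103 (adjusted p = 0.015, limma), -0.66 ± 0.19 in the second ir29-labelled set (adjusted p = 0.046) and -0.49 ± 0.09 as the mean of the sets (adjusted p = 0.001). The m103 call was lost without control replicate 1 (0.1) or salt replicate 2 (0.066), and that of the second set in 4 of 6 fits without 1 array. The mean kept its call in every alternative. Its salt effects did not differ between the sets by the test of that difference (adjusted p = 0.51).

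C3H20 is Ehd4, which promotes flowering through Ehd1. It gave 1657, 1824 and 2189 in m103 controls and 1439, 1382 and 1265 with salt, and 2409, 1833 and 2710 in agami controls and 1534, 1322 and 1834 with salt. In the first ir29-labelled set it gave 1624, 2023 and 1598 against 2343, 1611 and 1368, and in the second 2501, 1696 and 1924 against 1702, 1431 and 1660. Salt and control were apart in m103, and in agami and the second set they overlapped by 1 salt array each. No single set was called: m103 gave -0.46, agami -0.56 and the ir29-labelled sets -0.01 (first) and -0.33 (second). The mean of -0.34 ± 0.09 had an adjusted p of 0.014 (limma). It was 0.052 without the intensity trend. Without salt replicates 2 and 3 of the second ir29-labelled set, which leaves 1 salt array there, the mean was -0.32 and the adjusted p 0.068.

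C3H37 rose. Salt arrays gave 1881, 1580 and 1446 in m103 against controls of 1225, 1040 and 947, and 1419, 2006 and 1198 in the first ir29-labelled set against 762, 768 and 1223. In agami salt gave 910, 1356 and 1027 against 821, 824 and 938, and in the second set 1742, 1992 and 1733 against 1323, 2202 and 1452. Only in m103 were the arrays apart. The mean change was 0.46 ± 0.10 (adjusted p = 0.0034, limma) and kept its call in every alternative. The change of 0.74 ± 0.20 in the first ir29-labelled set (adjusted p = 0.044) lost its call in 4 of 6 fits without 1 array.

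C3H44 and C3H63 also rose, by 0.27 ± 0.05 each as the mean of the sets (adjusted p = 0.0017 and 0.0011, limma), and both kept these calls in every alternative. C3H44 gave 843, 952 and 972 in m103 controls and 1388, 1208 and 1359 with salt, and 1043, 1175 and 1042 in agami controls and 1562, 1419 and 1291 with salt. The arrays were apart in these sets and in the second ir29-labelled set (1134, 1072 and 1134 against 1186, 1321 and 1397), and overlapped in the first (1241, 1227 and 1169 against 1017, 1191 and 1361). The m103 change was 0.51 ± 0.11 (adjusted p = 0.0056), and 0.11 was its adjusted p from the lower-scale arrays alone. C3H63 gave 1818, 1906 and 1592 in controls of the first ir29-labelled set and 2441, 2352 and 2352 with salt. Its groups were apart there, in m103 and in the second set, where salt gave 2070, 2317 and 2059 against 1866, 1453 and 1766. The change in the first set was 0.43 ± 0.11 (adjusted p = 0.024), a call lost in 5 of 6 fits without 1 array.

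C3H49 rose by 0.30 ± 0.07 as the mean (adjusted p = 0.0046, limma) and was called in no set alone. Its salt arrays gave 835, 922 and 916 in m103, 995, 762 and 888 in agami, and 2101, 2196 and 2652 and then 1676, 2063 and 2031 in the ir29-labelled sets, first and second. Against the controls given above they were apart in m103 and the first set. C3H35 rose on its brightest probe set by 0.26 ± 0.06 as the mean (adjusted p = 0.0053). In m103, where its controls were low, salt gave 3174, 3912 and 2882, all above the controls, a change of 0.56 ± 0.12 (adjusted p = 0.0051, or 0.062 without salt replicate 2). In agami salt gave 6903, 7017 and 7708, again above the controls, with a change of 0.23 that was not called. Its other 2 probe sets gave single-set calls of their own: 0.68 ± 0.18 in m103 on the one ending in x_at (adjusted p = 0.026) and 0.81 ± 0.20 in the first ir29-labelled set on the dimmest (adjusted p = 0.028). Both were lost in 4 of 6 fits without 1 array.

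**Figure D5:**
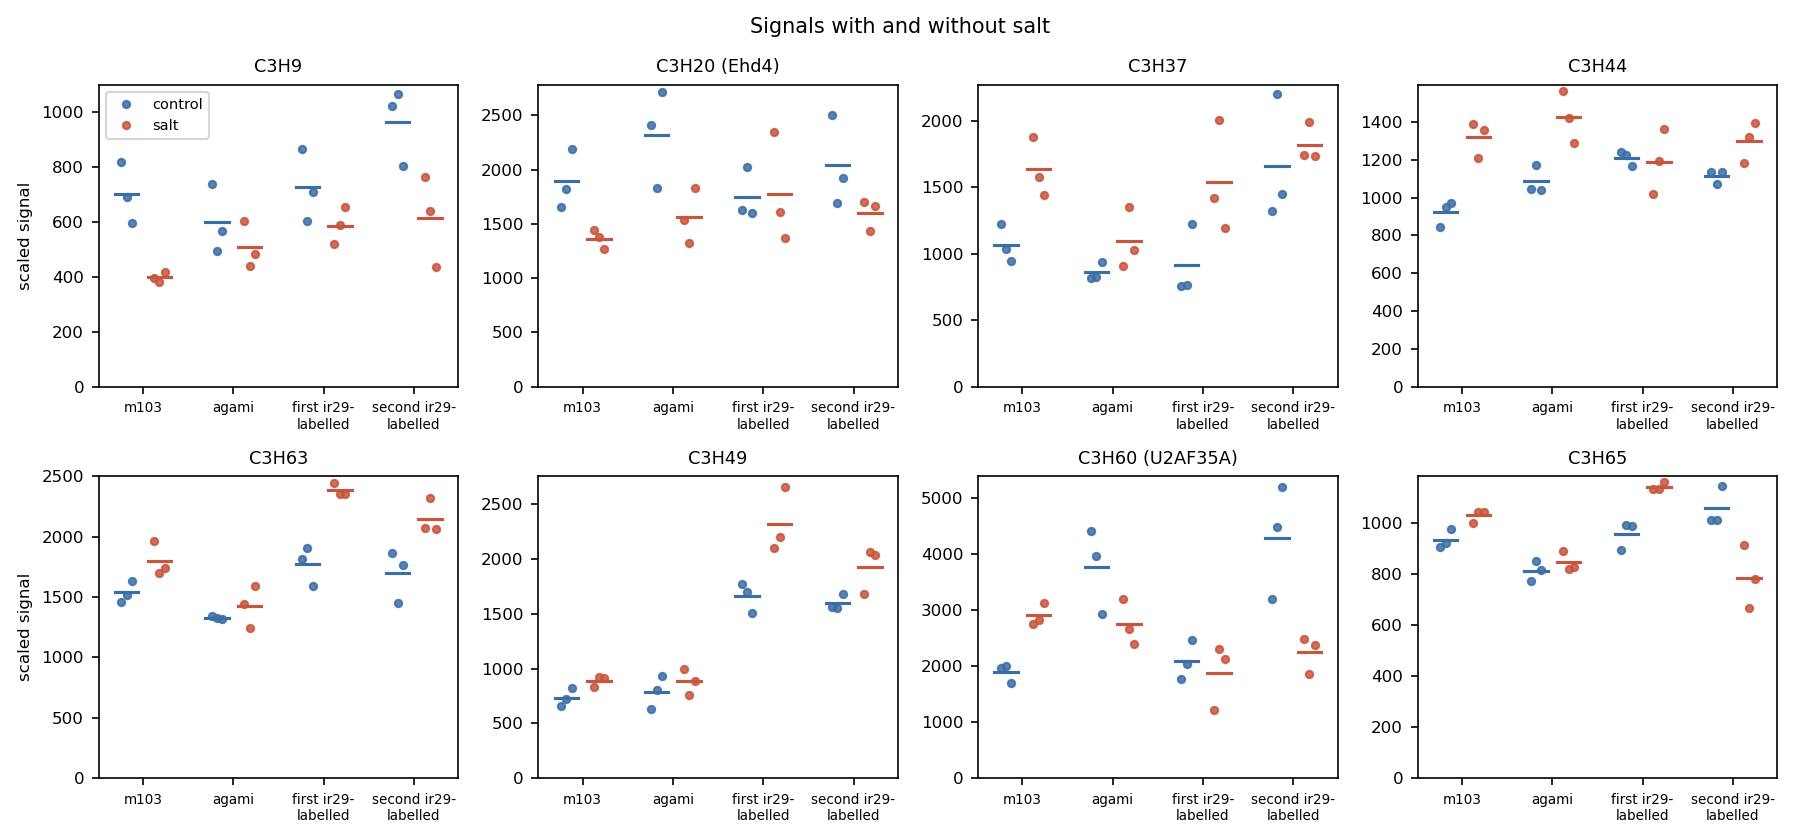
Scaled signal of 8 CCCH genes in the 4 sets, with control arrays in blue, salt arrays in red and the group mean as a line, and axes from 0. C3H9 is lower with salt in all 4 sets by its means, C3H37 and C3H63 are higher in all 4, and C3H60 and C3H65 are higher with salt in m103 and lower in the second ir29-labelled set.

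The second ir29-labelled set gave 7 of the 14 single-set calls. There the actin 3′ to 5′ ratio, a sign of RNA integrity and labelling, was 6.77 to 10.1 in the salt arrays and 4.11 to 7.37 in the controls, and it lay between 4.18 and 6.72 in all other groups. Of the marker lists, the summed growing point signal there was 5356 to 6317 with salt and 3593 to 4923 without, and the summed root signal 345 to 457 and 511 to 812. These sums followed OSH1, with medians of 3238 and 2299, and Lsi1, with 128 and 267, and the lists' median changes were 0.10 and -0.12. Their part in the results was not tested. Without salt replicates 2 and 3 of this set only 1 salt array is left, and 0 of the 7 calls were made. The changes there were smaller but kept their sign, as in C3H60 (-0.75 against -0.91), C3H23 (0.36 against 0.50) and C3H15 (0.37 against 0.52).

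C3H23 rose in this set, from 2191, 2070 and 2078 to 2709, 3454 and 2892, by 0.50 ± 0.10 (adjusted p = 0.0042, limma), and kept the call in every fit without 1 array. As the mean of the sets it rose by 0.19 ± 0.05 (adjusted p = 0.01, or 0.053 without the intensity trend). C3H22 is its direct neighbour in the genome, with 0 genes between them in the table, and it gave 805, 521 and 639 without and 499, 481 and 660 with salt, a change of -0.25 that was not called. C3H15 went from 390, 499 and 500 to 601, 720 and 689 (0.52 ± 0.15, adjusted p = 0.042). C3H31 went from 1054, 1084 and 1027 to 1325, 1856 and 1365 (0.50 ± 0.14, adjusted p = 0.037). C3H8 rose by 0.32 on 1 probe set (adjusted p = 0.037). All 3 had salt arrays above all controls, and each call was lost in 4 of 6 fits without 1 array. On the other probe sets of C3H15 and C3H8, with mean signals of 36.3 and 713, salt and control overlapped in all 4 sets. For the mean of the sets, C3H15 (0.24 ± 0.07, adjusted p = 0.035) and C3H32 (0.16 ± 0.05, adjusted p = 0.033) were called, each lost in 12 of 24 such fits.

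Salt effects differed between the sets in 2 members by a test of the difference itself, or 2.86%, where 2.02% of all probe sets were called. C3H60 (U2AF35A) rose from the controls given above to 2752, 2834 and 3139 in m103 and fell to 2494, 1864 and 2388 in the second ir29-labelled set. All m103 salt arrays lay above and all second-set salt arrays below their controls. In agami (3198, 2667 and 2399) and the first ir29-labelled set (1217, 2308 and 2127) salt arrays overlapped the controls. The change was 0.62 in m103 and -0.44 in agami, and among the ir29-labelled sets -0.19 in the first and -0.91 ± 0.20 in the second. Only the last was called (adjusted p = 0.011), and not without control replicate 3 (0.052) or salt replicate 2 (0.098) of that set. The difference between the sets had an adjusted p of 0.02 (limma), or 0.064 without m103 control replicate 3.

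C3H65 was the other. With salt it gave 1002, 1046 and 1046 in m103 against 908, 922 and 977, and 1135, 1133 and 1162 in the first ir29-labelled set against 896, 995 and 989. In the second set salt gave 915, 668 and 781 against 1015, 1014 and 1148, and in agami 894, 821 and 831 against 775, 852 and 818. Salt was above control in m103 and the first set, below it in the second, and overlapped it in agami. The change in the second set was -0.43 ± 0.10 (adjusted p = 0.018, limma), or 0.071 without control replicate 3 and 0.16 without salt replicate 2. The test over the sets (adjusted p = 0.036) was lost in 14 of 24 fits without 1 array. All these values are of the brighter probe set of C3H65. On the dimmer, with a mean signal of 60.9, salt lay above control in the first ir29-labelled set and overlapped it in all others.

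The contrasts of salt effects called 3 member probe sets between the ir29-labelled sets, or 4.29%, where 1.4% of all were called: C3H65 (-0.68 ± 0.15), C3H35 on its dimmest probe set (-1.19 ± 0.29) and C3H23 (0.55 ± 0.14). Their adjusted p were 0.018, 0.037 and 0.041 (limma). Above the 40th percentile the shares were 4.69% of the members and 3.51% of all. All 3 calls were lost with quantile normalization and without the intensity trend. Between agami and m103 and between the ir29-labelled and the japonica sets 0 were called, where 0.456% and 0.0891% of all were, and 4 and 9 of the 70 had an unadjusted p under 0.05 (5.71% and 12.9%, beside 9.01% and 9.05% of all).

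Several members with a known role showed no call. C3H10 and C3H47, which raise drought tolerance when overexpressed in rice, were dim: over the 24 arrays C3H10 ran from 5.50 to 69.9 and C3H47 from 0.760 to 61.2. Both lay at or below the 40th percentile, as did C3H1, so a change in them may not be detectable here. C3H12, which adds to resistance against bacterial blight, ran from 1010 to 1497 on its brightest probe set, with a mean salt change of 0.03 ± 0.06. C3H46 (LIC), which acts on leaf and tiller angle and in brassinosteroid signalling, gave 397, 410 and 438 in controls of the first ir29-labelled set and 360, 236 and 255 in those of the second. These did not overlap, and the difference of -0.55 ± 0.17 was not called (adjusted p = 0.057, limma). With salt LIC gave 263, 202 and 161 in the second set, overlapping the controls (-0.42, not called), and its mean change was -0.03.

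C3H41, a makorin with a RING domain as found in ubiquitin ligases, ran from 779 to 1332 and changed by 0.12 ± 0.07 as the mean, which was not called. C3H50 ran from 578 to 1152 and changed by -0.10 ± 0.09. C3H33 varied within groups: on the probe set ending in s_at, control replicate 1 gave 5697 in m103, 6319 in agami and 3241 and 3193 in the ir29-labelled sets, and the other controls 1226 to 2497. Its salt changes ran from -0.61 ± 0.41 in agami to 0.84 ± 0.41 in the first ir29-labelled set, none called. C3H2 (DOS) changed by 0.16 ± 0.06 as the mean on the probe set ending in s_at and was not called (adjusted p = 0.15). In m103, salt gave 5327, 4568 and 3267 there against 3366, 3215 and 3211, which overlapped. C3H53 and C3H11, chosen with C3H35, C3H2 and C3H8 for a high mean signal, ran from 2786 to 5249 and from 3175 to 5239 on their brightest probe sets and were not called for the mean salt effect (-0.04 and 0.16, adjusted p = 0.77 and 0.062).

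Other zinc finger and RNA genes of the table were read beside the members. Of 13 A20 and AN1 zinc finger genes (SAP), 3 fell and 0 rose in the mean salt effect, with a median of -0.25: SAP2 by -0.52 ± 0.13, SAP6 by -0.28 ± 0.05 and SAP15 by -0.28 ± 0.08 (adjusted p = 0.012, 0.00064 and 0.026, limma). The 4 genes with a ZFP name are 4 of these 13, SAP6 among them. Of 4 DOF factors DOF4 rose (0.17 ± 0.05, adjusted p = 0.03), of 6 WRKY factors 2 rose (WRKY62 by 1.28 and WRKY76 by 0.91, adjusted p = 0.0015 and 0.0087) and of 4 GATA factors 0 were called. In single sets these 2 WRKY genes were called in the first ir29-labelled set alone, where the 6 had a median of 2.29, beside 0.02 in m103, -0.36 in agami and -0.42 in the second set. Of the 5 splicing genes 0 were called, with a median of 0.10, and the poly(A)-binding protein gene PAB1 gave -0.12 and was not called. Among the marker lists the mean salt effect called 1 higher and 1 lower of 6 growing point genes, 2 higher of 8 leaf genes, 1 higher and 1 lower of 5 root genes and 0 of 6 seed genes. No test compared these lists with the CCCH genes.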

How the data were processed

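Each deposited array has a linear intensity for 57381 probe sets. The submitters' processing notes name GCOS 1.2, and no signal algorithm is named in the labels. As the scale varied between arrays, each was multiplied to a 2% trimmed mean of 500, and log2(scaled signal + 16) was taken. The 123 control probe sets were left out and no filter was used. Means of the 8 groups were fitted to all 24 arrays with limma 3.58.1 in R 4.3.3 (intensity trend, two-sided, Benjamini-Hochberg over 57258 probe sets, called under 0.05). The fit was also run on simulated data, with independent noise and changes added to the m103 salt arrays. These data held none of the scale, replicate or RNA quality differences between the real arrays. Precision is limited by the number of arrays, 3 per group.

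Genes came from the platform annotation, which gives 1 gene for 22436 probe sets, through the RefSeq gene table (assembly ASM3414082v1). Members and lists were chosen with earlier results of these data known. The text names the 6 to 8 largest calls of each contrast, the 5 members of highest mean signal and members of known role. The names TZF1, TZF5, GZF1, CPSF30 and C3H52 matched no symbol or synonym in the gene table, which does not mean that these genes have no probe set. The splicing list was narrowed to 5 genes after its annotation was read. Lists cover growing point, leaf, root and seed markers, SAP, ZFP, DOF, GATA, WRKY, splicing and poly(A) genes. Alternatives were quantile normalization, median centring, constants of 1 and 64, a filter at the 40th percentile, no trend, only the arrays compared, a replicate block, the deposited scale as a term, only the lower-scale arrays, each array left out and, added after seeing the data, 2 salt arrays left out together.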

Additional observations from a re-analysis of the deposited data

Results flagged for a closer look

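Salt effects that differed between sets were found in 4 probe sets by a test of the difference itself (limma). Over all 4 sets these were C3H60, with an adjusted p of 0.02, and C3H65, with 0.036. Between the ir29-labelled sets they were C3H65 (0.018), C3H35 on its dimmest probe set (0.037) and C3H23 (0.041). All 3 differences between these sets were lost with quantile normalization (C3H65 at 0.054) and without the intensity trend (C3H65 at 0.077). The C3H65 difference was also lost without salt replicate 2 of the second set (0.058), and those of C3H35 and C3H23 were lost in 9 and 10 of 12 fits without 1 array.

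In 5 of the 70 probe sets, or 7.14%, every salt array lay above the controls in 1 set and below them in another, as in 4.99% of all probe sets. C3H60 changed by 0.62 in m103 and -0.91 in the second ir29-labelled set. C3H65 changed by 0.14 in m103 and 0.25 in the first ir29-labelled set and by -0.43 in the second. C3H35 on the probe set ending in x_at changed by 0.68 in m103 and -0.48 in the second set, C3H2 on its plain probe set by 0.52 and -0.30, and C3H17 by 0.15 in m103 and 0.18 in agami and by -0.12 in the second set. The difference between m103 or agami and the second set alone was not tested in any of them, and over the 4 sets the last 3 gave adjusted p of 0.053, 0.45 and 0.3. In each, the negative change was that of the second ir29-labelled set, and its salt arrays had actin 3′ to 5′ ratios of 6.77 to 10.1. The part of that ratio was not tested.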

How the results depend on the processing

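Of 76 member calls in the single-set, mean and over-sets salt tests and the control tests, 0 changed direction and 43 held in every alternative: 37 of 50 calls between control groups, 6 of 10 for the mean salt effect and 0 of 16 for single sets or for the test over the sets. The fit without the intensity trend lost 24 calls, the fit on only the arrays compared 17 of 64 and median centring 10. The deposited scale as a term lost 7, quantile normalization 6, the replicate block 6 and a constant of 1 lost 1. A constant of 64 and the filter lost 0. Of the 7 calls refitted on only the lower-scale arrays, 5 were lost. The 3 calls between the salt effects of the ir29-labelled sets are not among the 76, and all 3 were lost with quantile normalization and without the trend. Counts of members called moved as follows. In m103 the 4 became 2 with only the lower-scale arrays. In the first ir29-labelled set the 3 became 0 without the trend, with only the arrays compared and with only the lower-scale arrays. In the second the 7 became 4 with median centring, 1 without the trend, 0 with only the arrays compared and 0 without salt replicates 2 and 3 together. The 10 of the mean became 6 without the trend and 6 without those 2 arrays. The 2 of the test over sets became 1 with quantile normalization, median centring or the replicate block and 0 without the trend. The 6 between ir29-labelled controls became 3 with only the arrays compared. Median centring moved the median of all probe sets in the ir29-labelled against japonica controls from 0.00 to 0.12, and the members called from 10 higher and 7 lower to 17 and 7; between the ir29-labelled controls 4 and 2 became 8 and 1. Leaving out 1 array gave 1 to 5 calls in m103, 0 to 2 in the first and 1 to 8 in the second ir29-labelled set, 8 to 11 for the mean, 0 to 3 over the sets and 3 to 10 between the ir29-labelled controls.

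Same-numbered control and salt arrays deviated together with r of -0.02 to 0.13 over 12 pairs, 1 of them over 0.1. Of the 12, 7 correlated best with their own number. Whether same-numbered arrays share more than the number was not tested. Same-numbered controls of different sets gave r of -0.03 to 0.12, and those numbered 1 gave 0.03 to 0.12. With the replicate block 5, 0, 2 and 5 members were called in m103, agami, the first and the second ir29-labelled set, and 10 for the mean.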
